A study of Mus musculus with 38 samples.

Results

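Prl2c2, Prl2c3 and Prl2c5 (the Prl2c genes) and Ctla2a and Ctla2b (the Ctla2 genes) are 5 mouse genes best known from the placenta, and their RNA was followed here in organoids of lung adenocarcinoma. They are 5 of the 55421 gene IDs counted in the double-floxed libraries and of the 55487 counted in the other libraries. The genes were chosen by measured values of this experiment. Prl2c3 and Ctla2a were selected on their increase with 4-hydroxytamoxifen (4-OHT) in double-floxed organoids, where they were among the genes with the largest increases, and Prl2c2 on its increase in Foxa2-floxed organoids. Their close paralogs Prl2c5 and Ctla2b were taken with them. The values in those 2 comparisons are therefore descriptions, given without a test. Tests are given in the Foxa1-floxed organoids and in the hairpin libraries, which the choice did not use. The line of the hairpin libraries was, however, among the double-floxed lines used for the choice.

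The 38 libraries measured bulk RNA of organoids, each line grown from an individual tumour of mixed 129/B6 mice in Matrigel with L-WRN conditioned medium. Every line carried p53frt and Rosa-FSF-CreERT2, that is a p53 allele flanked by frt sites and a tamoxifen-activated Cre at the Rosa locus. Double-floxed lines also carried Foxa1flox and Foxa2flox, Foxa2-floxed lines Foxa2flox alone, and Foxa1-floxed lines Foxa1flox alone. Cultures received 2 uM 4-OHT or ethanol vehicle for 72 hours. Double-floxed organoids gave 5 4-OHT and 5 vehicle libraries (line 1027B, replicates 1 and 4, line 1027D, replicates 2 and 5, and line 1292B, replicate 3). Foxa2-floxed organoids gave 4 and 4 (line 1267B, replicates 1 and 2, and line 1526C, replicates 3 and 4). Foxa1-floxed organoids gave 6 and 6 (line 1552A, replicates 1 and 2, line 1552B, replicates 3 and 4, and line 1552C, replicates 5 and 6). Line 1027B with a hairpin against Nkx2-1 (shNKX2-1) or a scrambled hairpin (shScramble) gave 2 4-OHT and 2 vehicle libraries per hairpin. No line without a floxed Foxa gene is among the libraries, so an effect of 4-OHT or of active Cre cannot be told apart from the loss of the Foxa genes. Repeat libraries of a line are not separate tumours, and p-values measure the spread between libraries, which may in part be technical.

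The Prl2c genes encode proliferins, secreted hormones of the prolactin family. In the mouse placenta they are made by trophoblast giant cells, and Prl2c2 protein is known to act on endothelial cells through the mannose 6-phosphate and insulin-like growth factor 2 receptor, the product of Igf2r. Proliferin was also known early as a growth-factor induced transcript of mouse fibroblasts. The Ctla2 genes encode small inhibitors of papain-type cysteine proteases that resemble the propeptide of cathepsin L. They were found in activated mouse T cells and mast cells, and are also transcribed in the placenta and its maternal tissue. 

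All members lie on mouse chromosome 13 (GRCm38, GENCODE). Prl2c3 (ENSMUSG00000056457) is at chr13:12790816-12800079 on the minus strand, Prl2c2 (ENSMUSG00000079092) at chr13:12996125-13005383 on the minus strand, and Prl2c5 (ENSMUSG00000055360) at chr13:13182715-13191923 on the plus strand. Ctla2b (ENSMUSG00000074874) is at chr13:60895350-60897447 and Ctla2a (ENSMUSG00000044258) at chr13:60934155-60936625, both on the minus strand. The other prolactin family genes form a separate cluster on the same chromosome, with Prl itself at chr13:27057570-27065205.

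How far a read can be credited to a single copy depends on the sequences, so the places where Prl2c2 and Prl2c3 differ are shown first. Their main transcripts were identical at 838 of 842 aligned bases (99.5%), with 4 substitutions. In the following windows the capital marks the differing base, written as in the transcripts. Positions are counted from 1 at the 5′ end of the Prl2c2 transcript, with the Prl2c2 base named first. G8A lies in the 5′ untranslated part of exon 1, T71C in coding exon 1, C257A in coding exon 2 and T376G in coding exon 4.
Prl2c2, G8A: ctccagtGaagcatcttc
Prl2c3, G8A: caactccagtAaagcatcttc
Prl2c2, T71C: ctcccttcttTgattcaacca
Prl2c3, T71C: ctcccttcttCgattcaacca
Prl2c2, C257A: gaactgttcaCtgaatttgaa
Prl2c3, C257A: gaactgttcaAtgaatttgaa
Prl2c2, T376G: cacacactatTcagctcttct
Prl2c3, T376G: cacacactatGcagctcttct

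Prl2c5 was 96.6% identical to Prl2c2 and 96.4% to Prl2c3, and Ctla2b was 88.8% identical to Ctla2a. Of all stretches of 75 bases in the main transcript, 19.9% were found in no other gene's transcripts for Prl2c2, 30.1% for Prl2c3 and 80.4% for Prl2c5. The same share was 75.7% for Ctla2a and 17.6% for Ctla2b. Ctla2b also shares 60.1% of its exon bases with Gm49391, an annotated gene that runs through both Ctla2 genes, and 22.6% with Gm49392. Reads of Prl2c2 and Prl2c3, and of Ctla2b, can therefore be split between copies or lost in ways the counts do not show, and the sum over each family is given beside the single genes. Gm49391 had at most 29 counts and Gm49392 at most 12 in any library, and Gm49393, the third gene annotated across the pair, had 0 in all 38.

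The promoters are shown because the members of each family moved together. The RefSeq promoter table (GRCm38.p6) held 4 of the 5 genes, all but Prl2c2. The 250 bases before each start site read as follows, 5′ to 3′ on the transcribed strand, with matches to the AP-1 motif TGANTCA in capitals.
Prl2c3, chr13:12800080-12800329, minus strand: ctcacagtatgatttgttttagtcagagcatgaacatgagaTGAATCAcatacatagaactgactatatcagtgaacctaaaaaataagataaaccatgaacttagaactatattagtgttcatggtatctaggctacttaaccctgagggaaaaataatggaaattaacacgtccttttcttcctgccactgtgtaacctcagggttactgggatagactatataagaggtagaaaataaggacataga
Prl2c5, chr13:13182466-13182715, plus strand: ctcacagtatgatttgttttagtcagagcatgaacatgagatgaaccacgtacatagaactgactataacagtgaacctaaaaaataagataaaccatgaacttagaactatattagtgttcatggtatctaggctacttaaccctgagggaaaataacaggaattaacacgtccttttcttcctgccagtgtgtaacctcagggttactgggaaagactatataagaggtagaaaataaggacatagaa
Ctla2a, chr13:60936626-60936875, minus strand: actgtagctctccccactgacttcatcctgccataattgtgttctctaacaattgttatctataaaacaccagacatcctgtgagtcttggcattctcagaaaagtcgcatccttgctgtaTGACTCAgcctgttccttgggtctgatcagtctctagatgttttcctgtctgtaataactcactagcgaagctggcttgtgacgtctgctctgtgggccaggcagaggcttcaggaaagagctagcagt
Ctla2b, chr13:60897448-60897697, minus strand: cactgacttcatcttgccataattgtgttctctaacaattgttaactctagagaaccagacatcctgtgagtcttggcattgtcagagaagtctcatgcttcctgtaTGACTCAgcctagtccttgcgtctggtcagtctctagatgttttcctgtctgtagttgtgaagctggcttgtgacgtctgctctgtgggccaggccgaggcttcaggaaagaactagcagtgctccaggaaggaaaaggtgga

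Within windows of 300 bases that also take in the first 50 transcribed bases, the promoters of Prl2c3 and Prl2c5 were 96.0% identical and those of Ctla2a and Ctla2b 91.7%. Prl2c3 held 1 AP-1 match (209 bases before the start), Ctla2a 1 (129 bases before) and Ctla2b 1 (143 bases before), and Prl2c5 held none. The motif reads the same on both strands apart from its middle base, and both strands were searched. It was found in 7.81% of 32851 such windows. The forkhead motif TGTTTAC (3.65% of windows) and the NKX2 motif CAAGTG (13.6% of windows) had no match in the 4 windows. These matches describe the letters of the windows and are not evidence of binding.

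Total counts were 13.6 to 33.2 M per library, and mitochondrial transcripts took 1.09% to 4.30% of them in 37 libraries. In shNKX2-1 4-OHT replicate 2 that share was 11.7%, so the members' hairpin results are also given without it. Levels are CPM, read counts scaled to library size by the TMM method, and changes were tested with edgeR's quasi-likelihood test, called at a Benjamini-Hochberg adjusted p under 0.05. The 3 tables (double-floxed, Foxa1- and Foxa2-floxed together, and hairpin) were normalised separately, so levels are compared within a table. Foxa2 fell with 4-OHT in double-floxed and Foxa2-floxed organoids and under both hairpins, and Foxa1 fell in double-floxed and Foxa1-floxed organoids (edgeR adjusted p from 3.55e-09 to 0.0284). Foxa1 was not called under the hairpins, at 20.8 ± 1.56 CPM with 4-OHT and 30.7 ± 4.83 CPM with vehicle for shNKX2-1 (SD, n = 2 each; edgeR adjusted p = 0.236) and 19.3 ± 1.1 CPM with 4-OHT and 27.1 ± 7.11 CPM with vehicle for shScramble (edgeR adjusted p = 0.469). Without line 1027D no gene was called in double-floxed organoids, Foxa1 and Foxa2 included, with 1660 genes at an unadjusted p under 0.05. Epithelial and lung tumour markers were abundant in every group, at summed levels of 5256 to 18129 CPM.

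In double-floxed organoids, Prl2c3 was the most abundant member after 4-OHT and stood above every vehicle library. It reached 6.85, 44.6, 1356, 30.2 and 51.2 CPM in the 4-OHT libraries (replicates 1 to 5), against 0.738, 0.109, 6.62, 0.460 and 0.407 CPM in the vehicle libraries. The mean was 298 ± 592 CPM with 4-OHT and 1.67 ± 2.78 CPM with vehicle (SD, n = 5 each), a fitted log2 change of 6.52. Line 1292B was far above the other lines with 4-OHT and was the highest with vehicle too. Without that line the fitted log2 change of Prl2c3 was 6.13. Prl2c2, the proliferin known for its action on endothelium, had 0.392, 4.71, 130, 14.8 and 11.2 CPM with 4-OHT, against 0.0527, 0.163, 2.7, 0.884 and 0.407 CPM with vehicle, a fitted log2 change of 4.61. The groups overlapped, because 1027B replicate 1 with 4-OHT lay below 3 vehicle libraries, 2 of them from other lines. Within each line and each sequencing request (the number that opens the library titles), both genes were higher with 4-OHT in 5 of 5 pairs.

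Prl2c5 was the least abundant Prl2c gene in double-floxed organoids and was nearly absent with vehicle. It had 1, 42, 64, 4 and 16 counts in the 4-OHT libraries, against 0, 0, 2, 0 and 0 counts in the vehicle libraries. In line 1027D the level was at least 15.2-fold higher with 4-OHT, taking a floor of 3 counts over the 2 vehicle libraries. In line 1292B the ratio of 64 to 2 counts had a 95% exact counting interval of 8.46 to 268, which covers counting error only. Per kb of exon, the mean level after 4-OHT was 219 CPM for Prl2c3, 29.6 CPM for Prl2c2 and 1.08 CPM for Prl2c5. In this comparison 1.99% of the 15198 genes tested were called higher, and 1.63% had every 4-OHT library above every vehicle library. The choice of the members used this contrast, so nothing is read from their share.

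**Figure D1:**
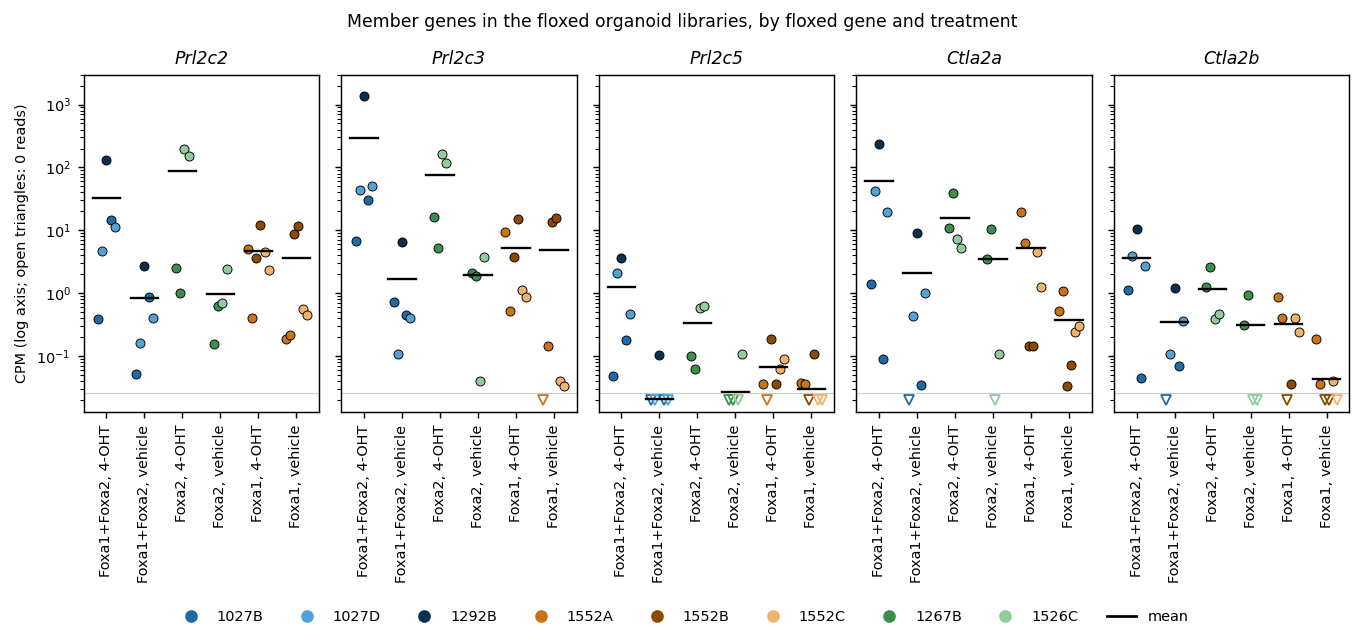
Levels of the 5 member genes (CPM, log axis) in each floxed library, with the floxed genes and treatment on the x axis, lines as colours, group means as bars and libraries with 0 reads as open triangles. Prl2c3 lay above all vehicle libraries in the double-floxed and Foxa2-floxed 4-OHT groups, and line 1552B (dark brown) was high for Prl2c2 and Prl2c3 with both treatments.

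In Foxa2-floxed organoids the rise in Prl2c RNA was carried mostly by line 1526C. Prl2c2 had 2.55, 0.995, 194 and 152 CPM in the 4-OHT libraries (replicates 1 to 4), against 0.155, 0.631, 0.697 and 2.40 CPM in the vehicle libraries. Both 1526C libraries with 4-OHT were far above the 1267B libraries, and 1267B replicate 2 with 4-OHT lay below the highest vehicle library. Prl2c3 had 16.5, 5.23, 161 and 116 CPM with 4-OHT, against 2.12, 1.85, 0.0410 and 3.73 CPM with vehicle, and the groups did not overlap. The means were 87.4 ± 100 CPM with 4-OHT and 0.972 ± 0.985 CPM with vehicle for Prl2c2 (SD, n = 4 each), a fitted log2 change of 5.39. For Prl2c3 they were 74.7 ± 76.2 and 1.94 ± 1.51 CPM, a fitted log2 change of 4.38. Without line 1526C the fitted log2 changes were 2.09 for Prl2c2 and 2.44 for Prl2c3. Prl2c5 did not pass the filter on low counts and had 2, 2, 18 and 17 counts with 4-OHT, against 0, 0, 0 and 3 with vehicle. Here 1.89% of the 16887 genes tested were called higher and 1.44% had groups that did not overlap upward, and the choice of members used this contrast as well.

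In Foxa1-floxed organoids edgeR with the filter on low counts called none of Prl2c2, Prl2c3 and Ctla2a, and the lines disagreed for the Prl2c genes. DESeq2 called Ctla2a, among 246 genes called in either direction. With no filter on low counts edgeR called Ctla2a and Prl2c2 (adjusted p = 1.25e-04 for Prl2c2), among 1141 genes called. Prl2c3 had 9.26, 0.520, 3.77, 15.4, 1.13 and 0.887 CPM in the 4-OHT libraries (replicates 1 to 6), against 0, 0.147, 13.5, 15.5, 0.0398 and 0.0341 CPM in the vehicle libraries. Line 1552B (replicates 3 and 4) was high with both treatments, while 1552A and 1552C were at or near 0 with vehicle. The fitted log2 change of Prl2c3 was 1.97 ± 1.15 (SE) with an edgeR adjusted p of 0.537. Prl2c2 had 5.15, 0.398, 3.58, 12, 4.56 and 2.35 CPM with 4-OHT, against 0.187, 0.220, 8.79, 11.5, 0.557 and 0.444 CPM with vehicle. Its fitted log2 change was 1.62 ± 0.80 (SE), with an edgeR adjusted p of 0.462, and the groups overlapped. With no replicate block of line the log2 changes were 0.08 for Prl2c3 and 0.36 for Prl2c2 (edgeR adjusted p = 1 for both), and with DESeq2 they were 3.7 (adjusted p = 0.0502) and 2.12 (adjusted p = 0.190). Without line 1552B they were 5.57 for Prl2c3 (edgeR adjusted p = 0.184) and 3.17 for Prl2c2 (edgeR adjusted p = 0.203). Prl2c5 had 0 to 5 counts per 4-OHT library and 0 to 3 per vehicle library and was not tested. In this comparison 0.00592% of the 16887 genes tested were called higher, a single gene, and 0.154% had every 4-OHT library above every vehicle library.

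The Ctla2 genes followed another order of lines. In double-floxed organoids Ctla2a, the more abundant of the pair, had 1.42, 43.0, 240, 0.0894 and 19.3 CPM in the 4-OHT libraries, against 0, 0.435, 9.22, 0.0354 and 0.994 CPM in the vehicle libraries. Line 1027B stayed low with both treatments, and its replicate 4 with 4-OHT held only 2 reads. The mean was 60.8 ± 102 CPM with 4-OHT and 2.14 ± 3.98 CPM with vehicle (SD, n = 5 each), a fitted log2 change of 5.12. The groups overlapped through line 1027B and the high vehicle library of 1292B. Ctla2b had 1.13, 3.97, 10.4, 0.0447 and 2.76 CPM with 4-OHT, against 0, 0.109, 1.22, 0.0708 and 0.362 CPM with vehicle, a fitted log2 change of 3.56. Within line and sequencing request, Ctla2a was higher with 4-OHT in 5 of 5 pairs and Ctla2b in 4 of 5, the exception being 1027B replicate 4 with 1 read against 2.

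In Foxa2-floxed organoids Ctla2a had 11, 39.4, 7.20 and 5.26 CPM in the 4-OHT libraries, against 3.46, 10.7, 0 and 0.108 CPM in the vehicle libraries, a fitted log2 change of 3.31. Here it was line 1267B, the lower line for Prl2c RNA, that held the higher Ctla2a levels with either treatment. In line 1526C the ratio of 368 counts with 4-OHT to 3 with vehicle had an exact 95% counting interval of 39.4 to 566. Ctla2b had 1.27, 2.61, 0.386 and 0.475 CPM with 4-OHT, against 0.310, 0.925, 0 and 0 CPM with vehicle. Its fitted log2 change was 2.36. Without line 1267B the fitted log2 changes were 6.67 for Ctla2a and 6.63 for Ctla2b, and without line 1526C they were 1.82 for Ctla2a and 1.63 for Ctla2b.

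In Foxa1-floxed organoids Ctla2a had 19.4, 6.30, 0.148, 0.145, 4.59 and 1.25 CPM in the 4-OHT libraries, against 0.523, 1.10, 0.0331, 0.0726, 0.239 and 0.307 CPM in the vehicle libraries. Lines 1552A and 1552C stood above all vehicle libraries, while line 1552B held at most 4 reads in any library. The fitted log2 change was 3.51 ± 0.76 (SE), with an unadjusted p of 2.46e-04 and an edgeR adjusted p of 0.107. The mean level was higher with 4-OHT in 3 of 3 lines, but in 1552B on only 8 against 3 counts. That ratio had an exact 95% counting interval of 0.703 to 17.1, which includes no change. Ctla2b, at 0 to 24 counts per 4-OHT library and 0 to 5 per vehicle library, had a fitted log2 change of 2.84 ± 0.71 (SE). It passed the filter on low counts mainly through 4-OHT libraries, where it was high, so no test of it is given. With DESeq2, which called 246 genes in this comparison against 2 by edgeR, the adjusted p of Ctla2a was 0.00968. Over 22 alternatives the edgeR or DESeq2 adjusted p of Ctla2a ran from 3.38e-24, with no filter on low counts, to 1, with no replicate block of line, and the log2 change from 2.96 to 3.80.

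Summed over each family, 4-OHT libraries stood above vehicle libraries of the same line in most but not all lines. The Prl2c sum was 24.6-fold higher with 4-OHT in 1027B, 105-fold in 1027D and 158-fold in 1292B among double-floxed lines. Among Foxa2-floxed lines it was 5.34-fold higher in 1267B and 89.4-fold in 1526C. The Foxa1-floxed lines ranged over 24.5-fold in 1552A, 8.45-fold in 1552C and 0.708-fold in 1552B. In 1552A the 4-OHT libraries differed, at 14.4 and 0.918 CPM, against 0.224 and 0.403 CPM with vehicle. Without Foxa1-floxed 4-OHT replicate 1 the mean log2 ratio over the Foxa1-floxed lines was 1.38, against 2.40 with all libraries. Line 1552B was the only one of the 8 lines with a lower Prl2c sum after 4-OHT, at 17.5 CPM with 4-OHT and 24.7 CPM with vehicle. The Ctla2 sum was 36.3-fold higher in 1027D, 24.0-fold in 1292B, 3.52-fold in 1267B, 14.6-fold in 1552A and 11.1-fold in 1552C. In the other three lines the vehicle libraries held 3 counts together. The ratio had an exact 95% counting interval of 6.36 to 97.9 in 1027B (55 against 3 counts), of 42.1 to 604 in 1526C (393 against 3) and of 0.822 to 18.9 in 1552B (9 against 3). These intervals cover counting error only, on reads summed over the libraries of a line. In 1027B, replicate 1 had 52 counts with 4-OHT and 0 with vehicle, while replicate 4 had 3 and 3.

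**Figure D2:**
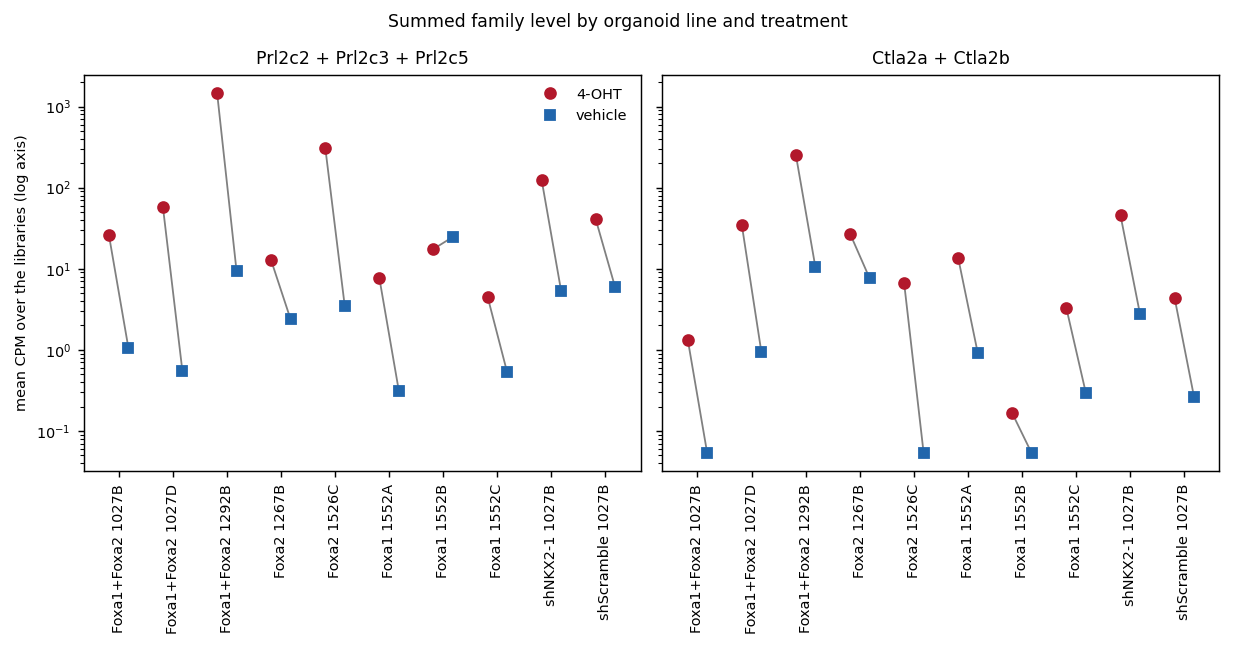
Mean level (CPM, log axis) of the summed Prl2c genes (left) and of the summed Ctla2 genes (right) in the 4-OHT and vehicle libraries of each line, joined by a line. The Prl2c sum of line 1552B was 17.5 CPM with 4-OHT and 24.7 CPM with vehicle, and every other pair was higher with 4-OHT.

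The families differed in which lines were high, apart from line 1292B. Line 1552B had a Prl2c sum of 7.53 to 27.5 CPM in its 4 libraries and a Ctla2 sum of at most 0.181 CPM. Line 1526C reached 268 and 356 CPM of Prl2c RNA with 4-OHT at Ctla2 sums of 5.73 and 7.59 CPM, whereas 1267B had 6.28 and 19.1 CPM of Prl2c RNA at Ctla2 sums of 42.0 and 12.2 CPM. Replicate 4 of double-floxed 1027B had a Prl2c sum of 45.2 CPM with 4-OHT and 3 Ctla2 reads. Across the 38 libraries, on log2 CPM centred within each genotype or hairpin experiment, the sums correlated with r = 0.48 as a description, because libraries share lines, treatment and table. Within families, the sum correlated with r = 0.98 with Prl2c3, 0.95 with Prl2c2 and 0.80 with Prl2c5, each a part of that sum.

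**Figure D3:**
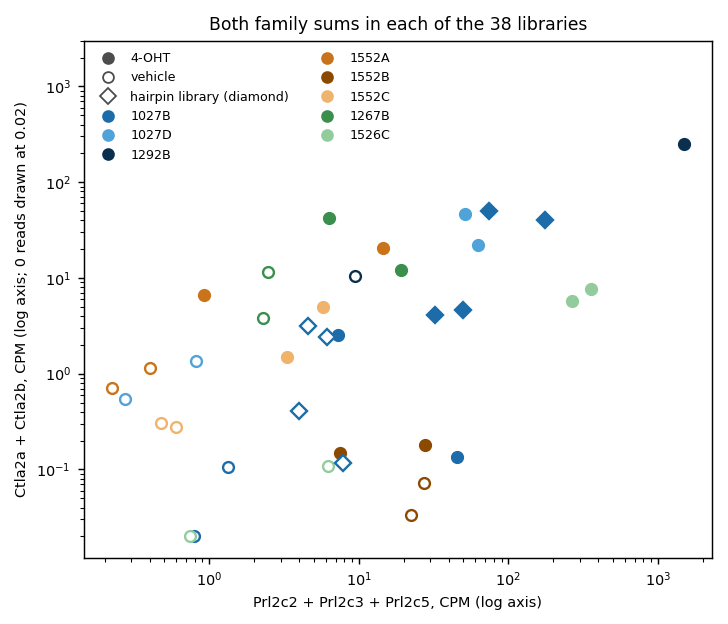
The Prl2c sum (x axis, CPM, log axis) and the Ctla2 sum (y axis, CPM, log axis) of all 38 libraries, with 4-OHT libraries filled, vehicle libraries open, hairpin libraries as diamonds and lines as colours. Line 1552B lies at high Prl2c and low Ctla2 values with either treatment, and line 1292B with 4-OHT is highest on both axes at 1490 and 250 CPM.

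The hairpin libraries repeated the 4-OHT comparison in libraries that took no part in the choice. All came from line 1027B, whose double-floxed libraries were among those used to choose Prl2c3 and Ctla2a, so the tumour is not a new one. With shNKX2-1, Prl2c3, Prl2c2 and Ctla2a were called higher with 4-OHT, where 2.72% of the 14465 genes tested were. Ctla2b passed the filter on low counts only through 4-OHT libraries, where it was high, so it is described without a test in the hairpin libraries. Prl2c3 had 52.3 and 125 CPM in the 4-OHT libraries, against 4.68 and 3.50 CPM in the vehicle libraries, a log2 change of 4.43 ± 0.53 (SE; edgeR adjusted p = 0.00348). Prl2c2 had 21.2 and 51.3 CPM with 4-OHT, against 1.46 and 1.06 CPM with vehicle (log2 change 4.84 ± 0.61 SE, edgeR adjusted p = 0.00429). The replicate with the high mitochondrial share was the higher for both Prl2c3 and Prl2c2. Ctla2a had 44.5 and 34.4 CPM with 4-OHT, against 2.12 and 2.57 CPM with vehicle (log2 change 4.07 ± 0.43 SE, edgeR adjusted p = 0.00229). Ctla2b had 5.96 and 6.14 CPM with 4-OHT, against 0.293 and 0.563 CPM with vehicle (log2 change 3.78 ± 0.49 SE). Without shNKX2-1 4-OHT replicate 2, the log2 changes were 3.67 for Prl2c3, 4.06 for Prl2c2, 4.23 for Ctla2a and 3.74 for Ctla2b. That fit takes the lone library to vary like the other groups. No single library left out ended the call of Prl2c3, Prl2c2 or Ctla2a here.

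With shScramble, Prl2c3 and Ctla2a were called higher with 4-OHT, where 1.67% of all genes tested were. Prl2c3 had 38.6 and 23.8 CPM with 4-OHT, against 4.95 and 2.84 CPM with vehicle (log2 change 3.0 ± 0.50 SE, edgeR adjusted p = 0.0147). Ctla2a had 2.75 and 2.65 CPM with 4-OHT, against 0.0590 and 0.338 CPM with vehicle (log2 change 3.77 ± 0.55 SE, edgeR adjusted p = 0.00851). Ctla2b, again described without a test, had 30 and 23 counts with 4-OHT against 1 and 1 with vehicle. The ratio of the summed counts had an exact 95% counting interval of 7.04 to 226. Prl2c2 missed the threshold at 10.8 and 8.0 CPM with 4-OHT, against 2.83 and 1.15 CPM with vehicle (log2 change 2.22 ± 0.55 SE, edgeR adjusted p = 0.0676). With DESeq2, which called 1092 genes here, its adjusted p was 0.00163. All 4 had both 4-OHT libraries above both vehicle libraries. The share of all genes with this order is not given here, so nothing is read from it. With 2 libraries per group, Prl2c3 missed the threshold without vehicle replicate 1, vehicle replicate 2 or 4-OHT replicate 1. Ctla2a missed it without 4-OHT replicate 1 or 2. Prl2c5 had 9 and 1 counts in shNKX2-1 4-OHT libraries and 1 and 5 in shScramble 4-OHT libraries, against 0 in all 4 vehicle libraries, and was not tested.

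**Figure D4:**
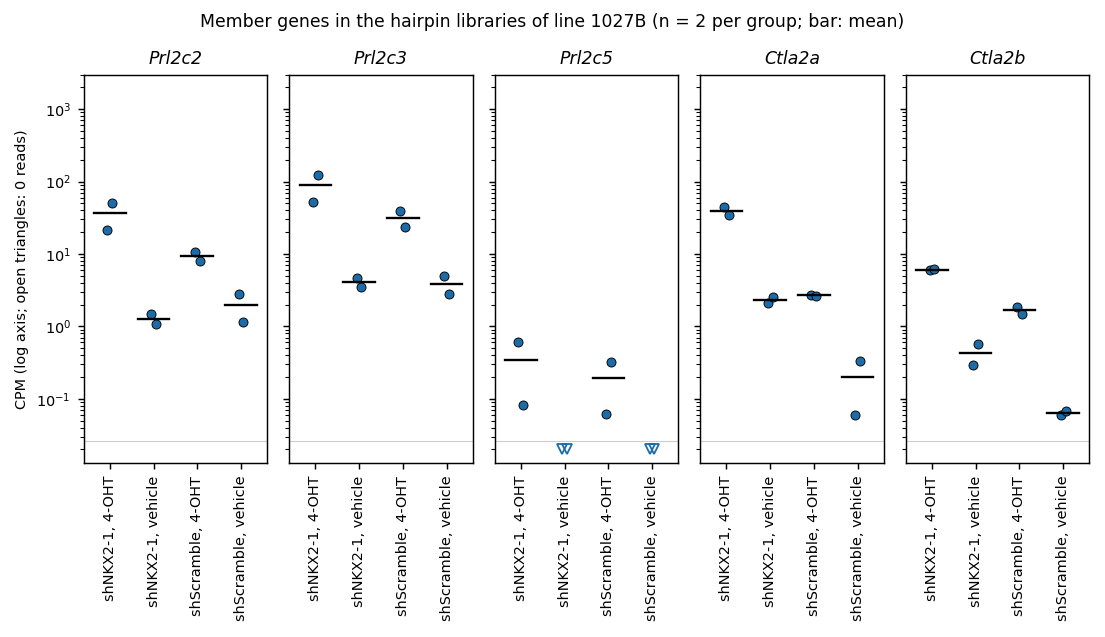
Levels of the 5 member genes (CPM, log axis) in the hairpin libraries of line 1027B, with hairpin and treatment on the x axis, group means as bars and 0 reads as open triangles. On this axis Ctla2a differs most between the hairpins, at 39.5 CPM with shNKX2-1 4-OHT and 2.7 CPM with shScramble 4-OHT.

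Between the hairpins at the same treatment, Ctla2a was the only member that edgeR called with the filter on low counts and all libraries. With no such filter edgeR called Ctla2a, Prl2c2 and Prl2c3 with 4-OHT, among 1058 genes called in either direction. With 4-OHT, the mean of Ctla2a was 39.5 ± 7.08 CPM with shNKX2-1 and 2.7 ± 0.08 CPM with shScramble (SD, n = 2 each), a log2 change of 3.87 ± 0.42 (SE; edgeR adjusted p = 0.00901), against 0.968% of genes called higher. With vehicle, its mean was 2.34 ± 0.31 CPM with shNKX2-1 and 0.198 ± 0.197 CPM with shScramble, a log2 change of 3.56 ± 0.56 (SE; edgeR adjusted p = 0.0653). It missed the threshold with edgeR, where 0.207% of genes were called higher. With no filter on low counts edgeR called it (adjusted p = 2.53e-07) among 461 genes, and DESeq2 called it (adjusted p = 6.01e-05) among 284 genes. Without the library of high mitochondrial share the 4-OHT result was 4.04 (edgeR adjusted p = 0.0054). It missed the threshold without shScramble 4-OHT replicate 1 (edgeR adjusted p = 0.101) or replicate 2 (edgeR adjusted p = 0.163). Ctla2b had a log2 change of 1.86 ± 0.43 (SE) with 4-OHT, or 1.84 without the library of high mitochondrial share, and of 2.63 ± 0.73 (SE) with vehicle. For the Prl2c genes with 4-OHT the log2 changes were 1.95 ± 0.51 for Prl2c2 (SE; edgeR adjusted p = 0.132) and 1.5 ± 0.46 for Prl2c3 (SE; edgeR adjusted p = 0.190), and without the library of high mitochondrial share they were 1.18 and 0.74. With shNKX2-1 4-OHT replicate 1 left out instead, so that this library stood alone, they were 2.43 for Prl2c2 (edgeR adjusted p = 0.00383) and 1.98 for Prl2c3 (edgeR adjusted p = 0.00478), and 5758 genes were called. DESeq2 called Prl2c2 (adjusted p = 0.00629) and Prl2c3 (adjusted p = 0.0341) with 4-OHT, among 704 genes called in either direction. With vehicle the log2 changes were -0.67 ± 0.59 for Prl2c2 and 0.06 ± 0.50 for Prl2c3 (SE; edgeR adjusted p = 1 for both).

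The difference between hairpins in the size of the 4-OHT effect was tested itself and was not called for any of the 14465 genes by edgeR, with 782 at an unadjusted p under 0.05 and 89 called by DESeq2. Prl2c2 had the largest difference among the members, a log2 value of 2.62 ± 0.78 (SE; edgeR adjusted p = 0.692), and Ctla2a had 0.30 ± 0.91 (SE; edgeR adjusted p = 0.937). Without shNKX2-1 4-OHT replicate 1 the difference was called for Prl2c2 (3.12, edgeR adjusted p = 0.013) and Prl2c3 (1.94, edgeR adjusted p = 0.0310), beside 3552 genes in all, and without replicate 2 it was 1.87 for Prl2c2 (edgeR adjusted p = 0.580). The family sums gave 4-OHT levels of 125 CPM for Prl2c with shNKX2-1 against 5.36 CPM with vehicle (23.3-fold), and 40.8 against 5.88 CPM with shScramble (6.93-fold). For Ctla2 they were 45.5 against 2.77 CPM with shNKX2-1 (16.4-fold) and 4.36 against 0.262 CPM with shScramble (16.7-fold). The knockdown itself was modest. Nkx2-1, the lung lineage factor targeted by the hairpin, was at 194 ± 18.1 CPM with shNKX2-1 4-OHT and 383 ± 34.6 CPM with shScramble 4-OHT (SD, n = 2 each; edgeR adjusted p = 0.0763), a difference that was called without the library of high mitochondrial share. With vehicle it was at 315 ± 49.8 CPM with shNKX2-1 and 426 ± 2.58 CPM with shScramble (edgeR adjusted p = 0.755).

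The mix of Prl2c copies differed between lines. After 4-OHT, Prl2c2 took 8.76% of the summed Prl2c reads in 1292B (95% exact interval 8.42 to 9.10), 14.2% in 1267B (11.5 to 17.3) and 15% in 1027D (13.8 to 16.3). It took 29.2% in 1027B (26.6 to 32.0), 36.2% in 1552A (31.6 to 40.9) and 44.5% in 1552B (41.4 to 47.8). The share was 55.3% in 1526C (54.6 to 56.1) and 76.0% in 1552C (70.7 to 80.8), so these were the 2 lines in which Prl2c2 took most of the Prl2c reads after 4-OHT. These intervals cover counting error only. Between the libraries of a line the share could differ by more, from 5.37% to 32.8% in 1027B, while in 1526C it was 54.6% and 56.5%. With vehicle, 1552B had 41.0% (38.5 to 43.6), 1526C 43.8% (36.6 to 51.1) and 1267B 17.5% (10.7 to 26.2). The double-floxed lines had higher shares with vehicle than with 4-OHT. These were 28.7% in 1292B (22.1 to 35.9), 52.2% in 1027D (30.6 to 73.2, 23 reads in all) and 49.1% in 1027B (35.1 to 63.2, 53 reads). The vehicle share was also higher in 1552C, at 93.1% (77.2 to 99.2, 29 reads). The hairpin libraries of 1027B with 4-OHT had 29.0% with shNKX2-1 and 23% with shScramble, against 23.6% and 34.0% with vehicle. Since the copies share most of their sequence, whether a line differs in the copy transcribed or in how reads were credited to copies was not tested.

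**Figure D5:**
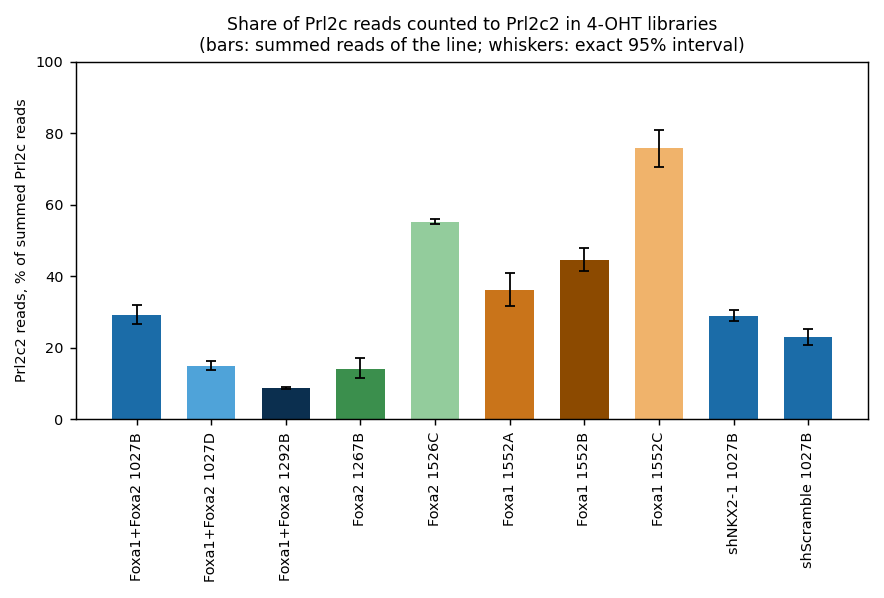
Share of the summed Prl2c reads counted to Prl2c2 (y axis, %) in the 4-OHT libraries of each line and hairpin (x axis), with exact 95% intervals as whiskers. The share runs from 8.76% in 1292B to 76.0% in 1552C.

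Ctla2b was a small part of the Ctla2 reads in most lines after 4-OHT, from 4.16% in 1292B (95% exact interval 3.59 to 4.79) to 13.1% with shNKX2-1 in 1027B (11.3 to 15.1). The share was 43.6% in double-floxed 1027B (30.3 to 57.7, 55 reads in all) and 38.1% with shScramble in 1027B (30.0 to 46.7, 139 reads). Per kb of exon, the shScramble 4-OHT libraries averaged 0.964 CPM of Ctla2b and 1.28 CPM of Ctla2a, and the shNKX2-1 4-OHT libraries averaged 3.51 CPM of Ctla2b and 18.7 CPM of Ctla2a.

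Other genes of the prolactin family were scarce. Of 23 listed, 16 had fewer than 10 counts in every library, and 1 to 3 passed the filter in each comparison. Prl, which encodes the pituitary hormone prolactin, had 17.4 and 37.2 CPM in shNKX2-1 4-OHT libraries, against 2.12 and 0.438 CPM in shNKX2-1 vehicle libraries (log2 change 4.43 ± 0.69 SE, edgeR adjusted p = 0.00942). It was also higher with shNKX2-1 than with shScramble at 4-OHT, at means of 27.3 ± 14 and 1.86 ± 0.38 CPM (SD, n = 2 each; log2 change 3.87 ± 0.66 SE, edgeR adjusted p = 0.0324). Without the library of high mitochondrial share the log2 changes of Prl were 3.78 (edgeR adjusted p = 0.0158) and 3.22 (edgeR adjusted p = 0.0463). The call between hairpins was lost without either shScramble 4-OHT library (edgeR adjusted p = 0.266 and 0.298). In double-floxed organoids Prl reached 11.3 CPM in 1292B with 4-OHT and was not called (edgeR adjusted p = 0.413). No listed prolactin gene was called in the double-floxed, Foxa2-floxed, Foxa1-floxed or shScramble comparisons, where few were tested. Their sum was nonetheless often higher with 4-OHT. It was 1.12 to 17.6 CPM with 4-OHT and 0.0544 to 1.70 CPM with vehicle in double-floxed libraries. In Foxa2-floxed libraries it was 0.765 to 2.89 and 0.215 to 0.465 CPM, and in Foxa1-floxed libraries 0.183 to 1.39 and 0.0341 to 0.690 CPM. With shScramble it was 2.20 to 2.39 and 1.42 to 1.55 CPM. Prl2c1, the remaining Prl2c gene of the annotation, had at most 3 counts per library.

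Genes that flank the Ctla2 pair on chromosome 13 had few reads. Tpbpa, a trophoblast gene 1.9 kb from Ctla2a, had at most 3 counts in any library, and Tpbpb, between Ctla2a and Ctla2b, at most 1. The placental cathepsins Ctsj and Ctsq, the next genes along, had at most 2 and 0 counts. On the other side, 4930486L24Rik had at most 25 counts, BC051665 at most 9, and the placental cathepsin Ctsll3 at most 26. Ctsll3 had 2, 13, 26, 0 and 4 counts in double-floxed 4-OHT libraries, against 1, 1, 0, 0 and 0 in double-floxed vehicle libraries, and was not called (edgeR adjusted p = 0.146). The genes around the Prl2c genes were Ero1lb (44 to 374 counts per library), Edaradd (0 to 11), Lgals8 (429 to 2094), Gpr137b (484 to 10463), Nid1 (2 to 3525) and Lyst (913 to 10598). Of the 9 placental cathepsins listed, 1 passed the filter in the double-floxed comparison and none in any other, and none was called. Of 16 trophoblast markers, 1 to 4 were tested in each comparison and none was called. Their sum was 10.8 to 183 CPM in double-floxed 4-OHT libraries and 1.73 to 243 CPM in double-floxed vehicle libraries, with Elf5, Cdx2 and Eomes the most abundant. Prl3b1, Ctsq and Synb were at 0 in all 38 libraries.

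A few of the listed blood cell markers were called in some of the same comparisons. Of 8 mast cell markers, Mcpt4 was called higher with 4-OHT in double-floxed organoids (2.96 ± 1.91 CPM with 4-OHT and 0.128 ± 0.104 CPM with vehicle, SD, n = 5 each; edgeR adjusted p = 0.0135) and in Foxa2-floxed organoids (edgeR adjusted p = 0.00461). In double-floxed organoids Mcpt4 passed the filter on low counts only through 4-OHT libraries, where it was high, so nothing is read from that call. The summed mast cell markers were 1.76 to 13.4 CPM with 4-OHT and 0.212 to 5.19 CPM with vehicle in double-floxed libraries, while Ms4a2 was at 0 in all 38 libraries and Cpa3 had at most 1 count. In Foxa2-floxed libraries the sum was 2.7 to 25.8 CPM with 4-OHT and 0.502 to 14.5 CPM with vehicle. The highest of these sums was nearly all Gata2, which reached 25.7 CPM. Fcer1a was at 0 in all 38 libraries and Tpsb2 had at most 11 counts, so the sum is not a measure of mast cells. Of 6 leukocyte markers, Csf1r was called higher in double-floxed organoids (edgeR adjusted p = 0.0114) and Csf1r and Itgam in Foxa2-floxed organoids (edgeR adjusted p = 0.00756 and 0.0403). Their sum overlapped between 4-OHT and vehicle, at 12.2 to 52.6 and 6.25 to 48.6 CPM in double-floxed libraries. No T cell, endothelial or fibroblast marker was called in any comparison, but few could be. Of 7 listed for each, 2 or 3 T cell, 0 or 2 endothelial and 1 or 2 fibroblast markers were tested per comparison. In the hairpin libraries no mast cell marker passed the filter and the mast cell sum was at most 1.04 CPM. The part of these cells in the Ctla2 levels was not tested. The Mcpt4 and Csf1r calls were lost without line 1027B or 1027D in double-floxed organoids and without line 1526C in Foxa2-floxed organoids, and the Itgam call without 6 of the single libraries in turn. In bulk RNA a change in the number of cells of a type and a change in RNA per cell cannot be told apart.

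Among receptors and partners of the proliferins, Igf2r was called higher with 4-OHT in double-floxed organoids, at 232 ± 57.3 CPM with 4-OHT and 105 ± 10.6 CPM with vehicle (SD, n = 5 each; log2 change 1.11 ± 0.16 SE, edgeR adjusted p = 0.0102). It was the only one of 6 tested there to be called, and none was called in the other comparisons. The list had a median log2 change of 0.30 in double-floxed organoids, beside 0.02 over all genes tested. Of the growth-factor induced angiogenic and remodelling genes, Plau, which encodes urokinase, was called higher with 4-OHT in double-floxed and Foxa2-floxed organoids and under both hairpins. Its means in double-floxed organoids were 408 ± 211 CPM with 4-OHT and 71.3 ± 73.1 CPM with vehicle (edgeR adjusted p = 0.0236). Spp1, the matrix protein osteopontin, rose with 4-OHT under both hairpins, and Vegfa, an angiogenic factor, fell. With 4-OHT, Spp1 was also higher with shNKX2-1 than with shScramble, at 1483 ± 456 and 268 ± 110 CPM (SD, n = 2 each; edgeR adjusted p = 0.0247), a call lost without either shScramble 4-OHT library. Without the library of high mitochondrial share the shNKX2-1 call of Vegfa was lost, and the Plau and Spp1 calls held. The Igf2r call was lost without line 1027B or 1027D, the double-floxed Plau call without any 1 line, and the Foxa2-floxed Plau call without line 1526C. Under the hairpins the Plau, Spp1 and Vegfa calls were each lost without 1 or more single libraries. None of the 10 or 11 AP-1 subunits tested was called in any comparison, although their summed level in double-floxed 4-OHT libraries spread over 401 to 11553 CPM, against 792 to 6116 CPM in vehicle libraries.

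Of the papain-type cathepsins of other tissues, the proteases whose propeptide Ctla2 proteins resemble, at most 1 was called in any comparison. Of 8 to 10 tested, Ctsc was called lower with 4-OHT in double-floxed organoids (157 ± 46.9 CPM with 4-OHT and 347 ± 75 CPM with vehicle, SD, n = 5 each; edgeR adjusted p = 0.0415). Ctsh was called lower in Foxa2-floxed organoids (edgeR adjusted p = 0.0308) and with shScramble (edgeR adjusted p = 0.00744), and higher with shNKX2-1 than with shScramble at 4-OHT (edgeR adjusted p = 0.0341). Ctsl, the cathepsin closest to the Ctla2 proteins, was called higher with 4-OHT under shNKX2-1, at 331 ± 58.4 CPM with 4-OHT and 157 ± 33.8 CPM with vehicle (SD, n = 2 each; edgeR adjusted p = 0.0457). Each cathepsin call was lost without 1 or more single libraries. No cystatin or stefin, the other inhibitors of these proteases, was called in any comparison, with 2 to 4 tested.

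The genes most like the Prl2c sum across the 38 libraries, by Pearson r on log2 CPM centred within each genotype or hairpin experiment, over 12471 genes, were Sgk2 (0.81), Lypd5 (0.81), Arap2 (0.81), Serpinb9b (0.79) and Ltbp1 (0.77). The most unlike were D230025D16Rik (-0.81), Tanc2 (-0.79) and Kdelr3 (-0.78). For the Ctla2 sum the most like were Rhoq (0.79), Mdfi (0.79), Gm14005 (0.79), Fez2 (0.78) and Abcg2 (0.78), and the most unlike Plpp5 (-0.80), Stt3b (-0.80) and Ist1 (-0.77). No gene was among the 5 most like both families. These values describe libraries that share lines, treatments and tables, and carry no p.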

How the data were processed

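The deposited tables hold read counts per Ensembl gene ID, 1 table each for the double-floxed, the Foxa1- and Foxa2-floxed, and the hairpin libraries. Per the submitters' processing notes, the tools were STAR 2.7.6a, featureCounts 1.5.1 and DESeq2 on build GRCm38, and no source used here states the strand setting, how reads with several matches were counted, or the annotation. Symbols matched 99.5% of the double-floxed IDs and 99.4% of the others. The counts were fitted with edgeR 4.0.16 under R 4.3.3 after its standard expression filter and TMM scaling, with the quasi-likelihood test and Benjamini-Hochberg adjustment over all genes tested. Organoid line was the replicate block in the floxed tables, and the hairpin table was fitted by group means. DESeq2 1.42.0 was an alternative. Pairing by line rests on the labels, since both treatments of a line come from 1 tumour. Deviations of vehicle and 4-OHT libraries of a line from their group means correlated with r from 0.734 to 0.908. Likeness used log2 CPM with a prior count of 2. Fits were checked on simulated data. Members, gene lists and naming rules were chosen with earlier results of these data known. Named were all members, up to 4 called genes per list and 2 in the other direction, and 3 neighbours on each side. Intervals and floors of 3 counts cover counting error only.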

Additional observations from a re-analysis of the deposited data

Results flagged for a closer look

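In 16 of 42 sets of values (a member or family sum in a group of 4 to 6 libraries), 1 library stood apart from the rest by Dixon's 95% criterion. Its chance rate of about 1 in 20 sets holds for normally distributed values. The CPM values here are skewed, hold zeros and come from several lines, so the number of flagged sets is not read as an excess. The sets are not independent, because sums contain their members and genes share libraries. Double-floxed 4-OHT replicate 3, the only 4-OHT library of line 1292B, stood above the others with 1356 CPM of Prl2c3, 130.5 CPM of Prl2c2, 240.04 CPM of Ctla2a, a Prl2c sum of 1489.8 CPM and a Ctla2 sum of 250.46 CPM. Its vehicle partner, double-floxed vehicle replicate 3, stood above the other vehicle libraries with 6.62 CPM of Prl2c3, 0.106 CPM of Prl2c5, 9.22 CPM of Ctla2a, a Prl2c sum of 9.43 CPM and a Ctla2 sum of 10.4 CPM. Foxa1-floxed 4-OHT replicate 1 of line 1552A stood apart with 19.4 CPM of Ctla2a and a Ctla2 sum of 20.3 CPM. Its partner, Foxa1-floxed vehicle replicate 1, had the highest vehicle level of Ctla2b at 0.187 CPM, which is 5 counts. Foxa2-floxed 4-OHT replicate 2 of line 1267B had the highest Ctla2a level of its group at 39.4 CPM. Prl2c5 stood apart on 3 counts each in Foxa2-floxed vehicle replicate 4, at 0.108 CPM, and in Foxa1-floxed vehicle replicate 4, at 0.109 CPM.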

How the results depend on the processing

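Family sums are given as mean log2 ratios over lines, with no test. With 1 library left out, 2 sums near 0 changed sign, the Prl2c sum between hairpins with vehicle and the Ctla2 difference in effect. The edgeR counts of called genes were 592 in double-floxed, 2 in Foxa1-floxed and 580 in Foxa2-floxed organoids, 627 for shScramble and 919 for shNKX2-1 with 4-OHT against vehicle, 34 and 228 between hairpins with vehicle and 4-OHT, and 0 for the difference between hairpins in the 4-OHT effect (782 at an unadjusted p under 0.05). In the same order DESeq2 called 1892, 246, 988, 1092, 1786, 284, 704 and 89 genes, and edgeR with no filter on low counts called 2391, 1141, 1816, 1372, 2455, 461, 1058 and 227. Without the replicate block of line, the floxed comparisons gave 82 (double-floxed), 1 (Foxa1-floxed) and 5 (Foxa2-floxed), and with a replicate block of line and run 1783, 10 and 914. Counts summed per line gave 0 in Foxa1-floxed and 73 in Foxa2-floxed organoids, and Foxa2-floxed fitted alone gave 133. Leaving out a line gave 111 (1027B), 0 (1027D, with 1660 at an unadjusted p under 0.05) and 253 (1292B) in double-floxed, 1059 (1267B) and 16 (1526C) in Foxa2-floxed, and 1 (1552A), 21 (1552B) and 1 (1552C) in Foxa1-floxed organoids. With 1 library left out, the count lay at 228 to 575 for double-floxed organoids, at 1 to 22 for Foxa1-floxed and at 227 to 927 for Foxa2-floxed organoids, and was 138 to 243 for shScramble, 258 to 6946 for shNKX2-1, 0 to 13 and 0 to 5758 between hairpins with vehicle and with 4-OHT, and 0 to 3552 for the difference in effect. The highest of these for shNKX2-1 left its 4-OHT replicate 2 alone in its group. With 1 library left out, the Prl2c sum ranged over 3.78 to 5.01 for shNKX2-1 (4.54 with all), 0.86 to 2.09 between hairpins with 4-OHT (1.62), -0.57 to 0.43 with vehicle (-0.14) and 1.02 to 2.24 for the difference in effect (1.75). The Ctla2 sum ranged over 3.69 to 5.13 in double-floxed organoids (4.81), 3.43 to 5.17 for shScramble (4.06), 3.20 to 3.53 between hairpins with 4-OHT (3.38), 2.77 to 4.53 with vehicle (3.41) and -1.16 to 0.60 for the difference in effect (-0.02). Counting the 3 read-through genes into the Ctla2 sum, an alternative chosen after seeing the data, gave 4.81, 2.99 and 4.40 in double-, Foxa1- and Foxa2-floxed organoids and 3.84 and 4.09 for shScramble and shNKX2-1. The cause of these shifts was not tested. Depth limits Prl2c5, and the Ctla2 genes in vehicle libraries, to few counts.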
